A study of Mus musculus with 8 samples.

Results

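The lysosome is the acidic compartment in which cells break down proteins, glycans and lipids, and 51 genes that build or control it are described here in cultured mouse limb buds exposed to organophosphate esters (OPE). The 51 are 26 hydrolases and other proteins of the lysosomal lumen, 6 lysosomal membrane proteins, 10 genes of the proton pump and 9 genes of nutrient sensing and of the TFEB transcription factor family. They were chosen by gene symbol from the 21692 genes of the deposited table, and all 51 were present and passed the filter on low counts that left 15517 genes for testing. The choice was made with the results of this contrast known. The values and counts below therefore describe these genes and give no independent support to a change of the lysosome as a group.

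The 4 OPE libraries came from forelimb buds of CD1 mouse embryos of gestation day 13 that were cultured for 24 h with a 1 in 300000 dilution of an OPE mixture modelled on house dust. The 4 vehicle libraries came from the same kind of buds kept for 24 h with dimethyl sulfoxide (DMSO), the solvent. The study asked how the mixture acts on a limb that is turning cartilage into bone, a process called endochondral ossification. OPE are flame retardants and plasticisers. Whole buds were used, so each library mixes cartilage, mesenchyme, vessels and blood-derived cells. The labels do not state if the replicates are separate litters, cultures or pools of limbs. A p-value here thus sets the group difference only against the scatter of these libraries within groups. Some of that scatter may be technical. If libraries share litters, cultures or pools, it may also leave out biological variation, and p-values would then be too small.

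Most lysosomal hydrolases work best at low pH, which the proton pump (the vacuolar ATPase) maintains by driving protons into the lumen. TFEB, TFE3 and MITF are related transcription factors that bind short palindromic DNA motifs in the promoters of many lysosomal genes. In fed cells the Rag GTPases bring TFEB to the lysosome surface, where the kinase complex mTORC1 phosphorylates it and keeps it out of the nucleus; folliculin and its partners act on RagC and RagD in this step. In the growing limb, cathepsins and glycosidases also take part in the turnover of cartilage matrix.

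Promoter sequences are shown first, because several of these genes share the motif bound by the TFEB family. RefSeq promoters (GRCm38.p6, 250 bases before to 50 after each start site) were at hand for 43 of the 51 genes. The 8 without one were Ctsb, Ctsh, Asah1, Galns, Npc1, Atp6v1b2, Atp6v1c1 and Atp6v1h. The letters CACGTG, which read the same on both strands, occurred in 17 of the 43 (39.53%), against 8.093% of the 27025 genes with a RefSeq promoter and 10.72% of the 13117 protein-coding genes that are also in the deposited table. The longer form TCACGTGA, which contains the first, occurred in 8 of the 43 (18.6%), against 1.125% of all genes and 1.814% of those protein-coding genes. The longest form searched, GTCACGTGAC, occurred in 1 of the 43 (2.326%), Cln3, against 0.37% of all genes and 0.6175% of those protein-coding genes. Known targets of TFEB are among the 51, so these shares are a description. Stretches of the 8 promoters with the 8-letter form, and of Lamp1, whose promoter held 4 copies of CACGTG, are printed 5′ to 3′ on the strand of the gene with CACGTG in capitals.
Ctsa (chr2:164833745-164833792, plus strand): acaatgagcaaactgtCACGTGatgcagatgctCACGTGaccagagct
Ctsd (chr7:142387904-142387941, minus strand): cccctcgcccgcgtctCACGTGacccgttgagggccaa
Gla (chrX:134601178-134601248, minus strand): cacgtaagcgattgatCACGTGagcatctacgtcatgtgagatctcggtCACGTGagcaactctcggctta
Lamp1 (chr8:13159085-13159166, plus strand): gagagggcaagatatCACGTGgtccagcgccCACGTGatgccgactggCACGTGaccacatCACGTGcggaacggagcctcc
Mcoln1 (chr8:3500458-3500495, plus strand): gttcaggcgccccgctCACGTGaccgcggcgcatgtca
Cln3 (chr7:126583336-126583373, minus strand): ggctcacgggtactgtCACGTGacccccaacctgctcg
Tmem55b (chr14:50930882-50930919, minus strand): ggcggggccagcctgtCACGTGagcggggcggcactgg
Atp6v0d1 (chr8:105566046-105566083, minus strand): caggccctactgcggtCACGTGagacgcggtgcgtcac
Atp6v1a (chr16:44139369-44139406, minus strand): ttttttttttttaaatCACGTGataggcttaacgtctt

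The roles are small sets in which 1 gene moves a share much, and differences between their shares were not tested. Counting genes with a RefSeq promoter, CACGTG was present in 9 of 22 hydrolase genes and 4 of 5 membrane protein genes. It was present in 2 of 7 pump genes and 2 of 9 nutrient sensing and TFEB family genes. A gene with more than 1 promoter counted once. Among the other genes of the pathway, it was present in 4 of 25 other hydrolase genes (16%), 5 of 26 other membrane protein genes (19.23%) and 2 of 12 other pump genes (16.67%). It was also present in 5 of 30 promoters of mTORC1 and Ragulator genes (16.67%), 4 of 34 of autophagy genes (11.76%) and 8 of 22 of genes that sort enzymes to the lysosome (36.36%). TCACGTGA was present in 5 of 22 enzyme sorting genes (22.73%), above the 18.6% given earlier. Among other membrane protein and other hydrolase genes it was present in 4 of 26 (15.38%) and 2 of 25 (8%). For other pump, autophagy, and mTORC1 and Ragulator genes the counts were 1 of 12 (8.333%), 1 of 34 (2.941%) and 0 of 30. GTCACGTGAC was present in 4 of 22 enzyme sorting genes (18.18%), against 2.326% earlier, and in no gene of the other lists. The promoters of Neu1, Lamp2 and Flcn, the 3 genes of smallest p-value below, held no CACGTG in this window. No match says only that these letters are not in the window.

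**Figure D1:**
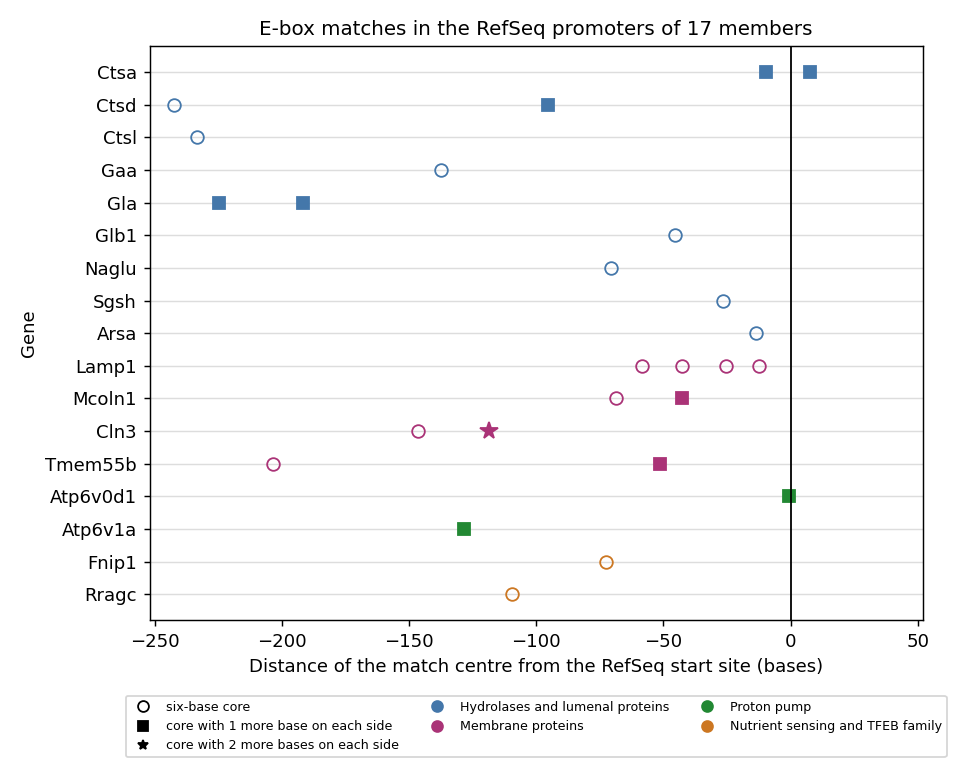
Distance in bases from the centre of each motif match to the RefSeq start site (vertical line at 0), one row for each of the 17 genes with a match. Open circles mark the six-base core alone, squares the form with 1 more base on each side and the star the form with 2 more, and colour gives the role; Lamp1 carried 4 matches within 61 bases before its start.

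Each library held between 14986793 and 21806141 counted reads with OPE and between 17549560 and 22006738 with vehicle, and the fewest reads behind any of the 51 genes in 1 library were 55, for Ctsh. Of the 15517 genes, 74 passed an adjusted p of 0.05 in edgeR (0.477%), 6 higher (0.0387%) and 68 lower (0.438%) with OPE, and the count ran from 7 (without vehicle 2 or vehicle 4) to 308 (without OPE 3) when 1 library was left out. Cartilage and limb mesenchyme markers matched the labelled tissue: Col2a1 and Sox9 averaged 1279.6 and 114 FPKM with vehicle, and none of the 9 markers passed. Markers of macrophages, cells rich in lysosomes, were lower with OPE: all 19 tested had a log2 fold change below 0, 10 passed, and their summed level was 58.6, 104, 141 and 135 CPM in OPE 1 to 4, against 308, 322, 282 and 303 CPM in vehicle 1 to 4. Csf1r and Stab1 passed in all 21 fits, and each of the other 8 lost its call in at least 1 of them. In whole buds, fewer macrophages and less RNA per macrophage cannot be told apart. OPE 1 and OPE 3 stood apart from the other OPE libraries, OPE 1 by the lowest macrophage sum and OPE 3 by a trend with gene length. Across the 15517 genes, log2 CPM minus the vehicle mean correlated with log2 gene length at r = -0.384 in OPE 3, against -0.119 to 0.0985 in the other OPE libraries, and across the 51 genes at -0.442 in OPE 3. Such correlations also ran from -0.246 in vehicle 2 to 0.293 in vehicle 1 over all genes. Across the 51 genes they were -0.467 in vehicle 2 and 0.64 in vehicle 1, both larger in size than in OPE 3. In the other OPE libraries they ran from 0.0425 in OPE 2 to 0.3 in OPE 1 across the 51 genes. A larger correlation is not a steeper trend. The values themselves ran from -0.80 (Arsb) to 1.025 (Ctsl) in OPE 3, against -0.22 (Galns) to 0.55 (Fnip1) in vehicle 1. Vehicle values are taken from their own mean, so those of a gene sum to 0. All these correlations are descriptions, since genes share their library.

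Most of the 51 genes had a fitted change above 0. A log2 fold change, here the log2 of OPE over vehicle fitted by edgeR, was above 0 for 39 of 51, against 52.8% of all genes tested, and its median was 0.25, against 0.0136 for all genes. None of the 51 passed an adjusted p of 0.05 in edgeR's quasi-likelihood test, and the smallest adjusted p was 0.0504, for Neu1. At an unadjusted p under 0.05 in edgeR there were 26 of 51, 24 higher and 2 lower with OPE, where all genes gave 13.2%, 5.85% higher and 7.31% lower. In 21 genes all 4 OPE libraries had more CPM (read counts scaled to library size by TMM) than all 4 vehicle libraries, and in none did all 4 lie below; over all genes these shares were 4.05% and 5.44%. The 51 genes together took 0.564 ± 0.0358% of the reads with OPE and 0.507 ± 0.0130% with vehicle (SD, n = 4 each).

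The count of passing genes turned on the tool and on single libraries. The Wald test of DESeq2 passed 11 of the 51, 10 higher and Ctsh lower, where it passed 3.45% of all genes, 1.15% higher and 2.31% lower. The authors' deposited table gave 10 of the 51 an adjusted p under 0.05, the same genes without Idua, where 2.68% of genes did, 0.878% higher and 1.8% lower. limma-voom passed 3, Neu1, Lamp2 and Flcn, all higher, where it passed 0.651% of all genes, 0.0838% higher and 0.567% lower. When each library's trend with gene length was removed, edgeR passed 12 genes, all higher, where 2.07% of all genes passed, 0.973% higher and 1.1% lower. Without OPE 3, 9 of the 51 passed, 7 higher and 2 lower. Of all genes 1.95% passed then, 82 genes higher and 226 lower. Without OPE 4 there were 6, all higher, where 1.13% of all genes passed, 48 higher and 130 lower. Without OPE 1 there was 1, Flcn, higher, where 0.37% of all genes passed, 15 higher and 43 lower. Leaving out OPE 2 passed none of the 51, where 12 of 15775 genes passed. Leaving out vehicle 1, 2, 3 or 4 also passed none. Over all genes 8 of 15801, 7 of 15637, 19 of 15635 and 7 of 15650 passed then.

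**Figure D2:**
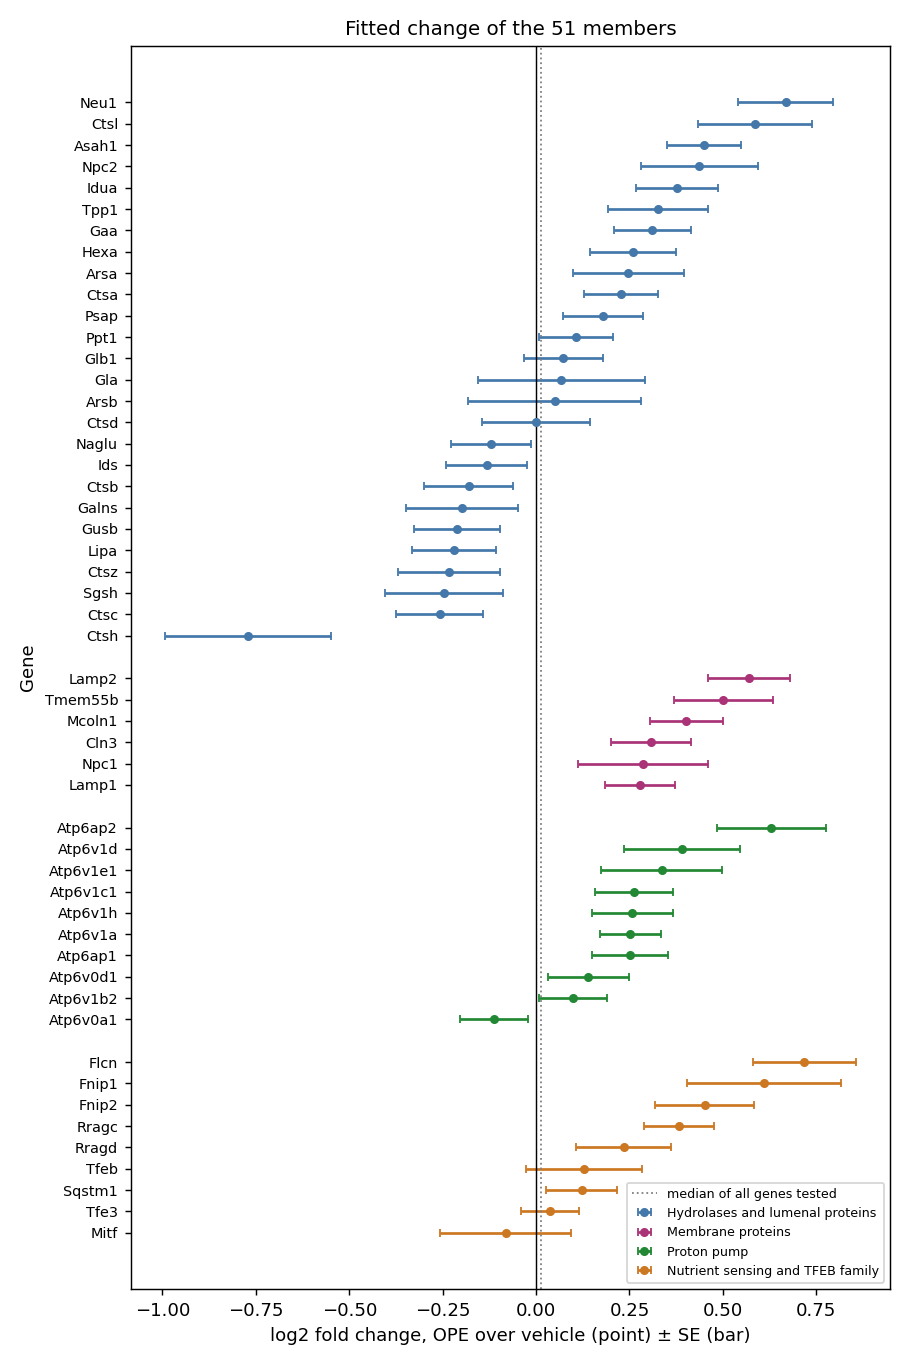
Fitted log2 fold change of OPE over vehicle (point) ± SE (bar) for each of the 51 genes, grouped by role, with a dotted line at the median of all genes tested. All 6 membrane proteins and 9 of 10 pump genes lie right of 0, while the hydrolases run from Ctsh at -0.77 to Neu1 at 0.67.

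The roles differed in how evenly their genes were placed. The 6 membrane proteins had a median log2 fold change of 0.36, the pump genes 0.26, the nutrient sensing and TFEB family genes 0.24 and the hydrolases 0.07. Summed over the 6 membrane proteins, the level was 1032, 911, 1001 and 868 CPM in OPE 1 to 4, against 709, 736, 738 and 731 CPM in vehicle 1 to 4, with no overlap. Such sums follow the most abundant genes most: of the 1032 CPM in OPE 1, Lamp1 gave 407 and Lamp2 344 CPM. The summed pump genes gave 846, 799, 1015 and 786 CPM in OPE 1 to 4, against 721, 754, 739 and 742 CPM in vehicle 1 to 4. Here too the groups did not overlap, with OPE 3 on top. The summed nutrient sensing and TFEB family genes gave 819, 686, 743 and 659 CPM in OPE 1 to 4, against 624, 609, 574 and 565 CPM in vehicle 1 to 4, again without overlap and with OPE 1 on top. The summed hydrolases gave 3057, 3015, 3812 and 2977 CPM in OPE 1 to 4, against 2841, 3046, 2913 and 2911 CPM in vehicle 1 to 4. Their groups overlapped, and OPE 3 alone lay far above the rest. Of its 3812 CPM, Psap, Ctsd and Ctsb gave 784, 552 and 470 CPM. The median of the pump genes was 0.16 without OPE 3 and 0.11 without both OPE 1 and OPE 3, that of the nutrient genes 0.13 without OPE 1, and that of the hydrolases 0.12 without OPE 1, 0.04 without OPE 3 and 0.03 without vehicle 4.

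**Figure D3:**
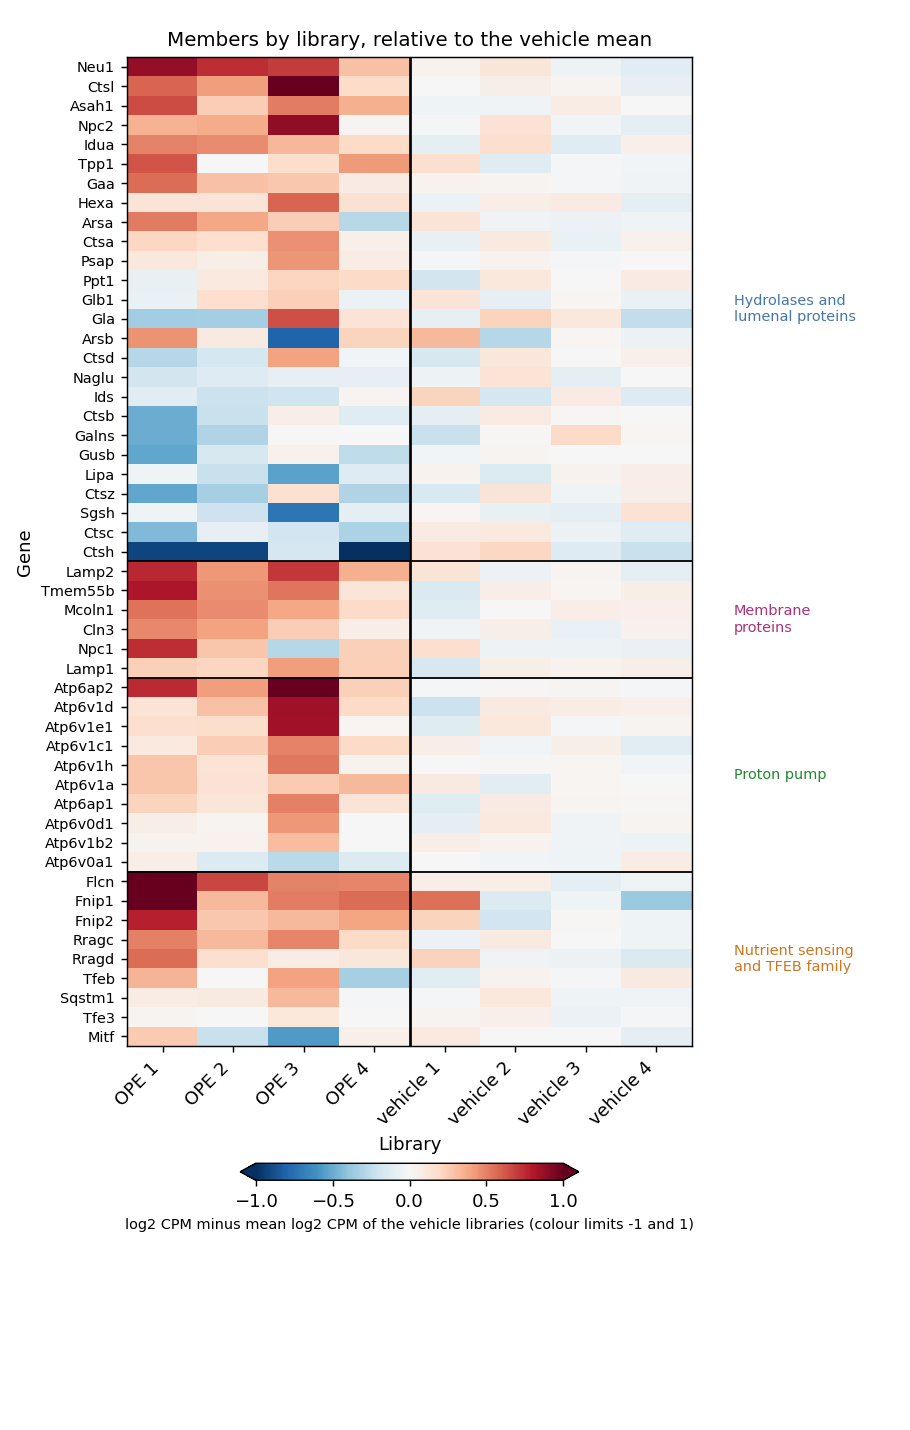
log2 CPM of each of the 51 genes (rows, grouped by role) in each library (columns), minus the gene's mean over the 4 vehicle libraries, with the colour limited to -1 and 1. The red of the OPE columns is strongest in OPE 1 for membrane and nutrient sensing genes (medians 0.64 and 0.50) and in OPE 3 for pump genes (median 0.50).

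Among the hydrolases, Neu1 had the smallest p-value. It encodes sialidase 1, which trims sialic acid from glycoproteins, and lies on chromosome 17, 34931253 to 34935953 (mm10). Its level was 58.0, 52.4, 51.1 and 38.4 CPM in OPE 1 to 4, against 32.3, 34.3, 30.3 and 29.1 CPM in vehicle 1 to 4. All OPE libraries lay above all vehicle libraries, OPE 4 nearest to them. The log2 fold change was 0.67 ± 0.13 (SE; edgeR adjusted p = 0.0504), a ratio of 1.59. It was 0.58 without OPE 1 and 0.66 without OPE 3, and the adjusted p lay between 0.000335 and 0.175 over the 21 fits. Ctsa encodes protective protein cathepsin A, which holds sialidase 1 and the beta-galactosidase encoded by Glb1 in one complex. Ctsa had 174, 169, 207 and 157 CPM in OPE 1 to 4, against 143, 160.2, 144 and 156 CPM in vehicle 1 to 4, with vehicle 2 above OPE 4, and a log2 fold change of 0.23 ± 0.10 (edgeR adjusted p = 0.358). Glb1 had 29.8, 35.1, 36.8 and 30.0 CPM in OPE 1 to 4, against 34.1, 29.5, 31.7 and 29.9 CPM in vehicle 1 to 4, with the groups interleaved. Its log2 fold change was 0.07 ± 0.11. Exons of Glb1 overlap those of Tmppe on the same strand, whose reads came to 54.6% of the reads of Glb1.

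The genes of lipid and glycogen breakdown were mixed. Asah1, for acid ceramidase, had 111, 84.1, 101 and 90.7 CPM in OPE 1 to 4, against 68.7, 69.0, 74.5 and 71.1 CPM in vehicle 1 to 4. The groups did not overlap, and the log2 fold change was 0.45 ± 0.10 (edgeR adjusted p = 0.0751). Gaa, for the glycogen-degrading acid alpha-glucosidase, had 237, 196, 194 and 170.2 CPM in OPE 1 to 4, against 165, 163, 158 and 156 CPM in vehicle 1 to 4, again without overlap. Hexa encodes a subunit of the hexosaminidase that degrades the ganglioside GM2. It had 112, 113, 153 and 114 CPM in OPE 1 to 4, against 98.7, 108, 109 and 96.4 CPM in vehicle 1 to 4; OPE 3 stood alone at the top and the log2 fold change was 0.26 ± 0.11, or 0.14 without OPE 3. Psap, the precursor of the saposins that present lipids to hydrolases, was the most abundant of the 51 genes per length. Its level was 624, 602, 784 and 610.4 CPM in OPE 1 to 4, against 574, 592, 572 and 576 CPM in vehicle 1 to 4. The groups did not overlap, but only OPE 3 lay far above, and the log2 fold change of 0.18 ± 0.11 was 0.08 without OPE 3. Npc2, which carries cholesterol inside the lumen, had 241, 245, 350.4 and 193 CPM in OPE 1 to 4, against 187, 210.2, 186 and 177 CPM in vehicle 1 to 4. OPE 4 lay within the vehicle range, and the log2 fold change of 0.44 ± 0.16 was 0.25 without OPE 3. Lipa encodes the acid lipase that frees cholesterol from its esters and had 46.8, 41.4, 33.3 and 44.1 CPM in OPE 1 to 4, against 49.3, 43.9, 49.5 and 50.3 CPM in vehicle 1 to 4. Its OPE values reached into the vehicle range, with a log2 fold change of -0.22 ± 0.11. Arsa and Gla, for the sulfatase and galactosidase of sulfatide and globotriaosylceramide, gave log2 fold changes of 0.25 ± 0.15 and 0.07 ± 0.22 with overlapping groups.

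The cathepsins, proteases of the lumen, had log2 fold changes of both signs. Ctsl, for cathepsin L, lies on chromosome 13, 64363214 to 64370306 and had 223, 199, 303 and 169 CPM in OPE 1 to 4, against 148, 155, 152 and 141 CPM in vehicle 1 to 4. OPE 3 was highest and all OPE libraries lay above the vehicle libraries. Its log2 fold change was 0.59 ± 0.15 (edgeR adjusted p = 0.122), 0.40 without OPE 3. Ctsd, for the aspartic protease cathepsin D, had 343, 369, 552 and 409 CPM in OPE 1 to 4, against 373, 450.4, 415 and 433 CPM in vehicle 1 to 4. OPE 1 and OPE 2 lay below all vehicle libraries and OPE 3 above all of them, and the log2 fold change was 0.000163 ± 0.14. Ctsb, for cathepsin B, had 319, 384, 470.1 and 413 CPM in OPE 1 to 4, against 420.0, 474, 452 and 451 CPM in vehicle 1 to 4 and a log2 fold change of -0.18 ± 0.12, with OPE 3 inside the vehicle range. Exons of Ctsb overlap those of Fdft1 on the opposite strand, whose reads came to 25.1% of those of Ctsb; the labels do not state if counting was strand-specific. Ctsz, for cathepsin Z, had 85.8, 97.8, 137 and 100.2 CPM in OPE 1 to 4, against 111, 135, 119.5 and 128 CPM in vehicle 1 to 4, with OPE 3 above the vehicle range and the other OPE libraries below it. Its log2 fold change was -0.23 ± 0.14, or -0.39 without OPE 3. Ctsz shares 10 exon bases with Nelfcd on the opposite strand, whose reads came to 71.7% of those of Ctsz.

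Ctsh and Ctsc, for cathepsin H and for the dipeptidyl peptidase cathepsin C, were the 2 genes with an unadjusted edgeR p under 0.05 in the lower direction. Ctsh lies on chromosome 9, 90054152 to 90076089 and had 4.43, 4.43, 7.56 and 3.66 CPM in OPE 1 to 4, against 9.37, 9.79, 7.77 and 7.28 CPM in vehicle 1 to 4. OPE 3 lay within the vehicle range and the other 3 OPE libraries below it. The log2 fold change was -0.77 ± 0.22 (edgeR adjusted p = 0.158), the lowest of the 51, and -1.03 without OPE 3 (edgeR adjusted p = 0.0131; range over the 21 fits 0.0131 to 0.365). Ctsc had 15.2, 19.5, 18.0 and 16.5 CPM in OPE 1 to 4, against 21.9, 22.1, 19.8 and 18.9 CPM in vehicle 1 to 4, with OPE 2 above vehicle 4, and a log2 fold change of -0.26 ± 0.12. Macrophage markers were lower in the same comparison. Csf1r, the receptor of the macrophage growth factor, had 2.22, 3.71, 4.02 and 5.93 CPM with OPE and 25.6, 22.5, 18.9 and 22.0 CPM with vehicle and a log2 fold change of -2.50 ± 0.24 (edgeR adjusted p = 0.00369), and the median of the 19 macrophage markers tested was -1.23. Their part in the values of Ctsh, Ctsc and the other hydrolases below 0 was not tested.

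Enzymes that degrade glycosaminoglycans, the sugar chains of cartilage matrix, also had values of both signs. Idua, for the iduronidase of heparan and dermatan sulfate, had 35.0, 34.4, 31.1 and 28.3 CPM in OPE 1 to 4, against 23.1, 27.7, 22.7 and 25.6 CPM in vehicle 1 to 4. Its groups did not overlap, with a log2 fold change of 0.38 ± 0.11 (edgeR adjusted p = 0.166). Exons of Idua overlap those of Dgkq on the opposite strand, whose reads came to 104% of those of Idua. The other 6 genes of this kind all had overlapping groups. Ids, Gusb, Galns, Naglu and Sgsh gave log2 fold changes of -0.13 ± 0.11, -0.21 ± 0.11, -0.20 ± 0.15, -0.12 ± 0.11 and -0.25 ± 0.16. Arsb, for the sulfatase of dermatan sulfate, gave 0.05 ± 0.23, with 24.1, 18.8, 10.1 and 20.6 CPM with OPE and 22.1, 14.5, 17.9 and 17 CPM with vehicle. OPE 3 was the lowest and OPE 1 the highest of its 8 libraries. The remaining hydrolases, Tpp1 and Ppt1, for a peptidase and a thioesterase whose loss causes childhood neurodegeneration in humans, gave 0.33 ± 0.13 and 0.11 ± 0.10 with overlapping groups. Ppt1 shares 3.51% of its exon bases with Cap1 on the opposite strand, whose reads came to 215% of those of Ppt1.

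**Figure D4:**
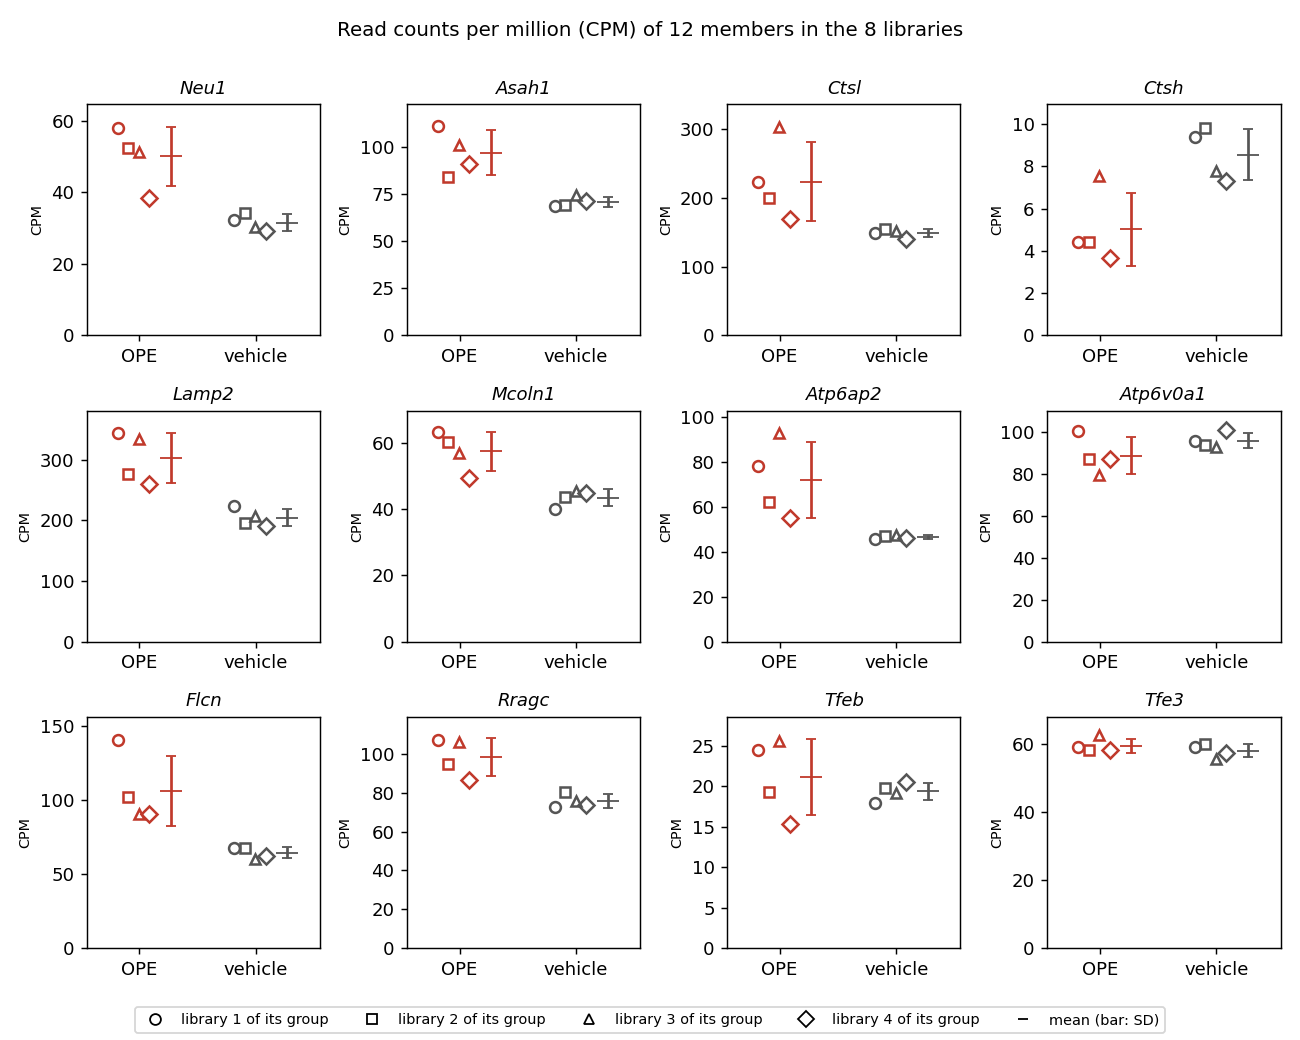
CPM of 12 of the 51 genes in the 4 OPE (left) and 4 vehicle (right) libraries, one marker shape for each replicate number, with the mean and SD beside the points. Neu1, Asah1, Ctsl, Lamp2, Mcoln1, Atp6ap2, Flcn and Rragc show no overlap between groups, while Ctsh, Atp6v0a1, Tfeb and Tfe3 do.

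All 6 membrane proteins had a log2 fold change above 0, as did 52.8% of all genes tested. For 5 of them the groups did not overlap, with OPE higher, where 4.05% of all genes were so placed. Lamp2, for a heavily glycosylated protein of the lysosome's limiting membrane that also acts in autophagy, lies on chromosome X, 38401357 to 38456454. It had 344, 276, 333 and 261 CPM in OPE 1 to 4, against 223, 196, 208 and 191 CPM in vehicle 1 to 4. Every OPE library was above every vehicle library, and the log2 fold change was 0.57 ± 0.11 (edgeR adjusted p = 0.0522). It was 0.50 without OPE 1, 0.52 without OPE 3 and 0.39 without both. Its relative Lamp1 had 407, 402, 463 and 409 CPM in OPE 1 to 4, against 309.9, 361, 354 and 361 CPM in vehicle 1 to 4. The groups did not overlap, OPE 3 was the highest and vehicle 1 the lowest, and the log2 fold change was 0.28 ± 0.09 (edgeR adjusted p = 0.223).

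Mcoln1 encodes the calcium channel of the lysosomal membrane that is known to act upstream of TFEB. It had 63.1, 60.2, 56.9 and 49.5 CPM in OPE 1 to 4, against 40.0, 43.5, 45.3 and 44.9 CPM in vehicle 1 to 4, with no overlap. The log2 fold change was 0.40 ± 0.10 (edgeR adjusted p = 0.101) and stayed between 0.35 and 0.46 when any 1 library was left out. Tmem55b, for a lysosomal phosphoinositide phosphatase that takes part in lysosome positioning, had 72.0, 56.6, 59.6 and 44.7 CPM in OPE 1 to 4, against 37.2, 43.0, 41.6 and 42.8 CPM in vehicle 1 to 4. Its groups did not overlap either, with a log2 fold change of 0.50 ± 0.13 (edgeR adjusted p = 0.128). Exons of Tmem55b overlap those of Apex1 on the opposite strand over 19.5% of their length, and Apex1 had 22.9% as many reads. Cln3, for the membrane protein lost in juvenile Batten disease, had 45.6, 43.1, 38.8 and 34.1 CPM in OPE 1 to 4, against 31.8, 34.1, 31.1 and 33.6 CPM in vehicle 1 to 4. OPE 4 lay just above vehicle 2, and the log2 fold change was 0.31 ± 0.11. Npc1, which hands cholesterol out of the lysosome, had 100.2, 72.9, 49.4 and 70.7 CPM in OPE 1 to 4, against 67.4, 58.0, 57.9 and 57.5 CPM in vehicle 1 to 4. OPE 1 was the highest and OPE 3 the lowest of its 8 libraries, and its log2 fold change of 0.29 ± 0.17 was 0.09 without OPE 1 and 0.44 without OPE 3. Npc1 shares 4.52% of its exon bases with 3110002H16Rik on the opposite strand, whose reads came to 37.4% of those of Npc1.

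The proton pump consists of a cytosolic V1 sector, which splits ATP, a membrane V0 sector, which passes protons, and accessory proteins. Of the accessory genes, Atp6ap2, which also serves as the prorenin receptor, had 78.4, 62.4, 92.9 and 55.0 CPM in OPE 1 to 4, against 45.9, 47.1, 47.4 and 46.1 CPM in vehicle 1 to 4. The vehicle libraries lay within 2 CPM of one another and all OPE libraries lay above them. It lies on chromosome X, 12587801 to 12617049, and its log2 fold change was 0.63 ± 0.15 (edgeR adjusted p = 0.0877), 0.49 without OPE 3 and 0.33 without both OPE 1 and OPE 3. Atp6ap1 had 155, 144, 188 and 145 CPM in OPE 1 to 4, against 122, 140.4, 135 and 134 CPM in vehicle 1 to 4, with the groups apart by the gap between OPE 2 and vehicle 2. Its log2 fold change was 0.25 ± 0.10, or 0.16 without OPE 3.

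In the V1 sector, the catalytic subunit gene Atp6v1a had 106, 96.7, 105 and 109 CPM in OPE 1 to 4, against 92.8, 81.3, 88.4 and 87.3 CPM in vehicle 1 to 4. The groups did not overlap, and the log2 fold change of 0.25 ± 0.08 was the least tied to OPE 3 among the pump genes named here, at 0.25 without it. Atp6v1b2, for the other subunit of the ATP-splitting ring, had 101, 101, 122 and 98 CPM in OPE 1 to 4, against 102, 100.4, 95.6 and 94.7 CPM in vehicle 1 to 4, with overlap and a log2 fold change of 0.10 ± 0.09. Atp6v1h, for the regulatory subunit H, had 53.4, 48.4, 63.5 and 45.2 CPM in OPE 1 to 4, against 43.9, 44.3, 44.7 and 43.2 CPM in vehicle 1 to 4, without overlap and with a log2 fold change of 0.26 ± 0.11. The stalk genes Atp6v1d and Atp6v1e1 stood out in OPE 3. Atp6v1d had 43.4, 48.6, 71.0 and 45.3 CPM in OPE 1 to 4, against 34.0, 42.1, 41.7 and 40.9 CPM in vehicle 1 to 4, and its log2 fold change of 0.39 ± 0.15 was 0.20 without OPE 3. For Atp6v1e1 the level was 75.5, 75.9, 121 and 68.3 CPM in OPE 1 to 4, against 61.9, 72.5, 66.5 and 68.4 CPM in vehicle 1 to 4, and the log2 fold change of 0.34 ± 0.16 was 0.12 without OPE 3. These are the shortest transcripts among the 51, with 1403 and 1203 bases in the deposited length column. With each library's length trend removed, their log2 fold changes were 0.36 and 0.29. Atp6v1c1, for subunit C, gave 0.26 ± 0.11 without overlap.

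In the V0 sector, Atp6v0d1, for the subunit that joins the sectors, had 95.6, 93.3, 124 and 92.1 CPM in OPE 1 to 4, against 86.1, 98.1, 89.8 and 93.5 CPM in vehicle 1 to 4. Only OPE 3 lay above the vehicle range, and the log2 fold change of 0.14 ± 0.11 was 0.03 without it. Atp6v0a1, for the a1 form of the large proton-path subunit, had 100.3, 87.1, 79.3 and 87.1 CPM in OPE 1 to 4, against 95.4, 93.8, 92.9 and 101 CPM in vehicle 1 to 4. It was the only 1 of the 10 pump genes with a log2 fold change below 0, at -0.11 ± 0.09, and its groups overlapped.

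Of the nutrient sensing genes, Flcn had the highest log2 fold change of the 51. It encodes folliculin, which acts with Fnip1 or Fnip2 on RagC and RagD, and lies on chromosome 11, 59791408 to 59810016. Flcn had 140.3, 102, 90.7 and 90.3 CPM in OPE 1 to 4, against 67.4, 67.4, 60.4 and 62.4 CPM in vehicle 1 to 4. OPE 1 was far above the other OPE libraries, which in turn lay above all vehicle libraries. The log2 fold change was 0.72 ± 0.14 (edgeR adjusted p = 0.0522), a ratio of 1.65, 0.54 without OPE 1 (edgeR adjusted p = 0.0467) and 0.58 without both OPE 1 and OPE 3 (edgeR adjusted p = 0.00992; range over the 21 fits 0.000510 to 0.176). Both partners had values above 0. Fnip1 had 91.2, 54.3, 61.8 and 63.7 CPM in OPE 1 to 4, against 63.2, 39.3, 42.0 and 33.5 CPM in vehicle 1 to 4, with OPE 1 highest and vehicle 1 between OPE 3 and OPE 4. Its log2 fold change was 0.61 ± 0.21, or 0.42 without OPE 1. Fnip2 had 62.1, 43.7, 45.2 and 47.6 CPM in OPE 1 to 4, against 42.2, 31.6, 36.5 and 35.2 CPM in vehicle 1 to 4, without overlap and with a log2 fold change of 0.45 ± 0.13 (edgeR adjusted p = 0.166).

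The Rag GTPase genes Rragc and Rragd encode the RagC and RagD proteins on which folliculin acts. Rragc had 107, 94.9, 106 and 86.7 CPM in OPE 1 to 4, against 72.6, 80.7, 75.9 and 73.5 CPM in vehicle 1 to 4, with no overlap and a log2 fold change of 0.38 ± 0.09 (edgeR adjusted p = 0.101). Rragd had 84.4, 63.9, 60.1 and 61.9 CPM in OPE 1 to 4, against 67.2, 56.0, 55.0 and 51.9 CPM in vehicle 1 to 4. OPE 1 alone lay above the vehicle range, and its log2 fold change of 0.24 ± 0.13 was 0.10 without OPE 1.

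The transcription factor genes themselves gave small values. Tfeb had 24.5, 19.3, 25.6 and 15.4 CPM in OPE 1 to 4, against 17.9, 19.8, 19.2 and 20.6 CPM in vehicle 1 to 4. OPE 4 was the lowest and OPE 3 the highest of the 8 libraries, the groups overlapped, and the log2 fold change was 0.13 ± 0.16. It was -0.16 without both OPE 1 and OPE 3. Tfe3 had 59.2, 58.2, 62.6 and 58.3 CPM in OPE 1 to 4, against 59.1, 60.1, 55.8 and 57.4 CPM in vehicle 1 to 4, a narrow spread in both groups, and a log2 fold change of 0.04 ± 0.08. It turned to -0.02 when libraries were scaled by their totals. Mitf had 10.9, 7.81, 6.10 and 9.46 CPM in OPE 1 to 4, against 9.76, 9.08, 9.13 and 8.52 CPM in vehicle 1 to 4, with OPE 1 highest and OPE 3 lowest, and a log2 fold change of -0.08 ± 0.18. Sqstm1, for the autophagy receptor p62, had 239, 242, 285 and 226 CPM in OPE 1 to 4, against 224, 245, 220.3 and 222 CPM in vehicle 1 to 4. Only OPE 3 lay above the vehicle range, and the log2 fold change was 0.12 ± 0.09, or 0.05 without OPE 3. These are levels of messenger RNA, and the place of the TFEB family proteins in the cell was not measured.

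Other genes of the pathway were read from the same fit. Over all genes tested, 0.477% passed and 13.2% had an unadjusted edgeR p under 0.05, 5.85% higher and 7.31% lower. With both directions together, the other hydrolase, other pump, mTORC1 and Ragulator, and autophagy lists lay below that 13.2%. The other membrane protein and enzyme sorting lists lay above it. Of 36 other hydrolase genes none passed, and 3 higher and 1 lower had an unadjusted edgeR p under 0.05. Scpep1, for a serine carboxypeptidase, had 153, 123, 142 and 99.6 CPM in OPE 1 to 4, against 90.3, 95.8, 86.4 and 84.4 CPM in vehicle 1 to 4, without overlap and with a log2 fold change of 0.54 ± 0.13 (edgeR adjusted p = 0.0934). Rnaset2a, for a lysosomal ribonuclease, gave 0.40 ± 0.12, and Acp5, for the acid phosphatase of osteoclasts and macrophages, gave -0.45 ± 0.15. Of 31 other membrane protein genes 1 passed, Laptm5, lower with OPE. It is a gene of blood cells and also on the macrophage list. Laptm5 had 9.28, 14.5, 13.5 and 16.3 CPM in OPE 1 to 4, against 26.1, 27.2, 27.5 and 31.2 CPM in vehicle 1 to 4 and a log2 fold change of -1.07 ± 0.16 (edgeR adjusted p = 0.0222), a call lost without OPE 2 or without any 1 vehicle library (edgeR adjusted p 0.0529 to 0.0883). In the same list, Mcoln3 and Ostm1, for a relative of the Mcoln1 channel and for the partner of the chloride transporter of lysosomes, gave 0.92 ± 0.22 and 0.51 ± 0.14 without overlap; 6 genes higher and 2 lower had an unadjusted p under 0.05.

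Of 11 other pump genes tested none passed, and 1 had an unadjusted edgeR p under 0.05, where 13.2% of all genes did. It was Atp6v0b, for a subunit of the proton-carrying ring, with 87.8, 79.7, 114 and 58.1 CPM in OPE 1 to 4, against 51.2, 59.2, 53.3 and 52.8 CPM in vehicle 1 to 4 and a log2 fold change of 0.65 ± 0.17. Atp6v0e and Atp6v0d2 gave 0.32 ± 0.17 and 0.95 ± 0.49, with overlap. None of 34 mTORC1 and Ragulator genes passed, and 3, all higher, had an unadjusted p under 0.05. Sesn2, for a leucine-sensing and stress-induced protein, had 99.3, 46.7, 45.8 and 45.9 CPM in OPE 1 to 4, against 35.2, 37.1, 37.0 and 33.8 CPM in vehicle 1 to 4, with OPE 1 far above the rest. Eif4ebp1, for a substrate of mTORC1 that restrains translation, had 129, 68.2, 119.6 and 66.9 CPM in OPE 1 to 4, against 57.1, 61.4, 50.1 and 55.0 CPM in vehicle 1 to 4, with OPE 1 and OPE 3 far above the rest. Their log2 fold changes were 0.74 ± 0.23 and 0.78 ± 0.21, and that of Rragb was 0.29 ± 0.11. Of 42 autophagy genes none passed, with 2 higher (Gabarap at 0.43 ± 0.16 and Atg4c at 0.23 ± 0.10) and 1 lower (Atg13 at -0.24 ± 0.09) at an unadjusted p under 0.05. Of 28 enzyme sorting genes none passed, with 5 higher, among them Vps35 at 0.28 ± 0.08, Sorl1 at 0.43 ± 0.16 and Vps41 at 0.19 ± 0.08. The median log2 fold change was 0.12 for the other hydrolases, 0.16 for the other membrane proteins, 0.29 for the other pump genes, 0.05 for mTORC1 and Ragulator, 0.03 for autophagy and 0.08 for enzyme sorting.

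Osteoclasts, which acidify bone with the same pump, and vessels were checked by marker lists. None of 8 osteoclast markers tested passed, their median log2 fold change was -0.03, and Mmp9 and Tnfrsf11a gave 1.00 ± 0.26 and -0.85 ± 0.25. Of 12 endothelial markers 11 had a log2 fold change below 0, and the median was -0.46. At an unadjusted edgeR p under 0.05 there were 6, all lower, where 7.31% of all genes were lower. In 5 all OPE libraries lay below all vehicle libraries, where 5.44% of all genes were so placed. The summed level was 248, 322, 322 and 362 CPM in OPE 1 to 4, against 465, 435, 408 and 395 CPM in vehicle 1 to 4. Only Flt1 passed, with a log2 fold change of -1.36 ± 0.25 (edgeR adjusted p = 0.0452). It had 3.65, 7.21, 5.20 and 7.19 CPM in OPE 1 to 4, against 21.2, 13.2, 13.5 and 11.7 CPM in vehicle 1 to 4. The call of Flt1 was lost without OPE 1, OPE 2 or any 1 vehicle library (edgeR adjusted p 0.0742 to 0.124). The part of these cell types in the lysosomal values was not tested.

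Levels per gene length were compared in the deposited FPKM. Psap, Ctsd and Lamp1 led, with 241 ± 22.1 FPKM with OPE and 221 ± 4.45 FPKM with vehicle, 192 ± 35.2 FPKM with OPE and 199.8 ± 16.9 FPKM with vehicle, and 183 ± 5.55 FPKM with OPE and 156 ± 11.9 FPKM with vehicle (mean ± SD, n = 4 each). Psap was above Ctsd in each of the 8 libraries, and Ctsd was above Lamp1 in each of the 4 vehicle libraries. With OPE the means of Ctsd and Lamp1 differed by less than the SD of Ctsd. Mitf had 1.73 ± 0.458 FPKM with OPE and 1.90 ± 0.0948 FPKM with vehicle and was the lowest by the vehicle mean, followed by Sgsh and Gla at 2.72 and 2.91 FPKM. With OPE it was not separated from Ctsh, which had 1.78 ± 0.535 FPKM with OPE and 3.17 ± 0.445 FPKM with vehicle and lay below Mitf in OPE 1 and OPE 4. CPM divided by the gene length gave the same rank to all 51 genes. Spread differed among the genes as well: the coefficient of variation ran from 3.31% for Naglu to 35.0% for Gla with OPE, and from 1.44% for Atp6v1h to 29.2% for Fnip1 with vehicle.

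**Figure D5:**
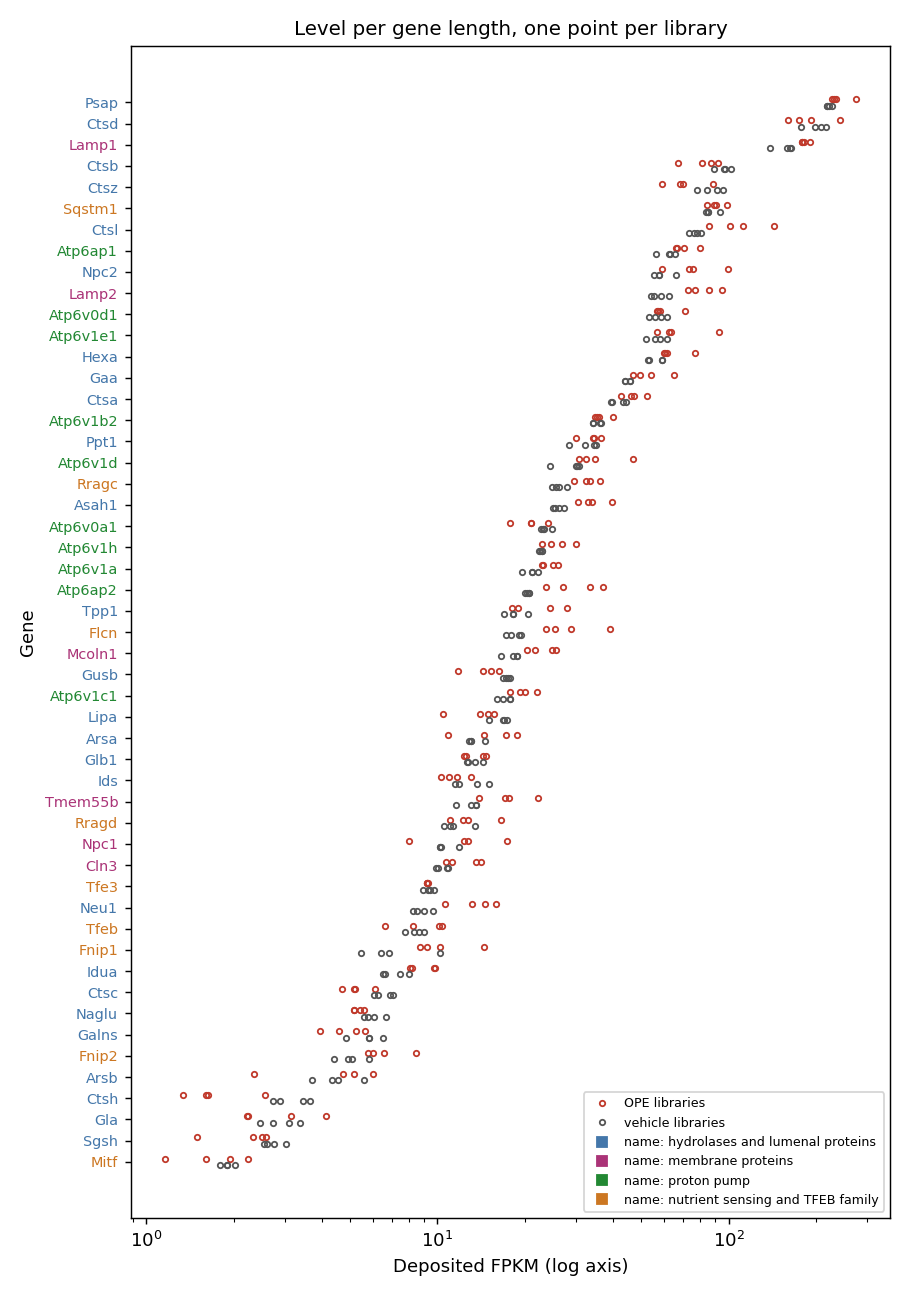
Deposited FPKM of the 51 genes on a log axis, one point for each library, OPE in red and vehicle in grey, ordered by the vehicle mean, with gene names coloured by role. Levels span from Psap at 221 FPKM to Mitf at 1.90 FPKM with vehicle, and the shift between groups within a gene is small beside the range between genes.

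Within families the dominant member was mostly the same in every library. Lamp1 exceeded Lamp2 per length in 8 of 8 libraries, with a ratio of FPKM of 1.89 to 2.51 with OPE and 2.22 to 3.01 with vehicle. Rragc exceeded Rragd in 8 of 8, with 2.17 to 3.02 with OPE and 1.85 to 2.47 with vehicle, and Fnip1 exceeded Fnip2 in 8 of 8. Among the transcription factors, Tfe3 exceeded Mitf in 8 of 8, with 4.18 to 7.91 with OPE and 4.67 to 5.19 with vehicle. Tfe3 and Tfeb were close, Tfe3 being ahead in 6 of 8 libraries. For the pump, Atp6v0a1 exceeded Atp6v0a2 in 8 of 8 libraries and Tcirg1, the a3 form used by osteoclasts, in 6 of 8. The kidney form Atp6v1b1 had 7 reads in all with OPE and 13 in all with vehicle.

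The promoters were set beside the changes. The 17 genes with CACGTG had a median log2 fold change of 0.25, with 15 above 0, the 26 with a promoter but without the letters 0.21, with 19 above 0, and the 8 without a RefSeq promoter 0.18, with 5 above 0. Ranges overlapped widely, from -0.25 to 0.61 with the letters and from -0.26 to 0.72 without. Of the promoters printed above, those of Mcoln1 and Tmem55b belong to genes with log2 fold changes of 0.40 ± 0.10 and 0.50 ± 0.13, and those of Ctsd and Gla to genes at 0.000163 ± 0.14 and 0.07 ± 0.22. No difference between these sets of genes was tested.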

How the data were processed

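Per the labels' protocols, RNA of cultured forelimb buds was selected with poly-T beads and sequenced in 8 libraries. Tools named in the submitters' processing notes are STAR 2.5, HTSeq 0.6.1, CASAVA 1.8 and DESeq2 (version written as 2), with mm10 as the build; no role, annotation release or strand setting is stated. Per the file headers, the authors deposited raw read counts per gene, FPKM values, a gene length, and their own log2 fold change and p-value columns, the adjusted p being missing for 3933 genes. A further 8 columns with values per library were not used.

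The members and all gene lists were chosen with earlier results of these data known. The deposited counts went into edgeR 4.0.16 under R 4.3.3 (TMM, filterByExpr, robust quasi-likelihood fit, two-sided, group as the only term) with Benjamini-Hochberg adjustment over 15517 genes at 0.05. Dividing the log2 fold change by the root of the F statistic gave its SE. These steps were also tested on simulated data with known changes. Within groups, every pair of libraries differed by more than counting noise. Alternatives used DESeq2 1.42.0, limma 3.58.1 (voom), other scalings and filters, offsets that remove each library's spline trend (4 degrees of freedom) on gene length, the replicate number as a block, and fits without single libraries. log2 CPM values have a prior count of 2. Genes given in full were a list of 26, any past the threshold, and the 3 of smallest p in each direction in each role; of other lists, the 3 of smallest p and any past the threshold. Some other members are given too, after their values were seen. Exon overlaps come from GENCODE M21 and promoters from RefSeq GRCm38.p6. Intervals for counting error are not given, since PCR reads are not independent molecules.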

Additional observations from a re-analysis of the deposited data

Results flagged for a closer look

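In 13 of the 102 groups of 4 libraries checked (51 genes in OPE and in vehicle), 1 library lay so far from the other 3 that its gap to them, as a share of the group's range, exceeded Dixon's critical value; chance alone does so in about 1 group in 20, and the genes share their libraries. In OPE 3 this held for Hexa at 153 CPM, Psap at 784 CPM, Lamp1 at 463 CPM, Atp6v0d1 at 124 CPM, Atp6v1b2 at 122 CPM and Atp6v1e1 at 121 CPM, each the highest of its group. In OPE 1 it held for Rragd, the highest at 84.4 CPM. In vehicle 1 it held for Arsa at 50.5 CPM and Npc1 at 67.4 CPM, each the highest, and for Lamp1 at 309.9 CPM and Atp6v1d at 34.0 CPM, each the lowest. In vehicle 2 it held for Lipa, the lowest at 43.9 CPM, and for Sqstm1, the highest at 245 CPM.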

How the results depend on the processing

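The call of the members is the result that moved. Of the 51 genes, 1 passed with the size factors of DESeq2 or with library totals, 3 without a filter, with limma-voom or with the newer quasi-likelihood method, 11 with the DESeq2 test, 12 with gene length offsets and 2 without both OPE 1 and OPE 3; none passed with upper quartile scaling or a filter at a mean of 1 CPM. Over all genes the count was 81 with the size factors of DESeq2, 93 with upper quartile scaling, 63 with a mean of 1 CPM, 101 with limma-voom, 85 without both OPE 1 and OPE 3, 131 with library totals, 136 without a filter, 536 with the DESeq2 test, 112 with the newer method and 321 with gene length offsets. Leaving out 1 library gave 0 to 9 members and 7 to 308 genes: 58, 12, 308 and 178 without OPE 1, 2, 3 and 4, and 8, 7, 19 and 7 without vehicle 1, 2, 3 and 4. With the replicate number as a block, 3 members (Neu1, Lamp2 and Flcn) and 62 genes passed, and with the block and gene length offsets 9 members and 257 genes. The labels do not say that a number marks a shared batch, and deviations of same-numbered libraries correlated at 0.309, 0.0818, 0.0126 and 0.0918; OPE 3 and OPE 4 correlated best with another number. The median of the pump genes was 0.112 without both OPE 1 and OPE 3. The medians of the 4 roles stayed above 0 in all alternatives. They were 0.03412 to 0.1233 (hydrolases), 0.3156 to 0.4216 (membrane), 0.1565 to 0.2883 (pump) and 0.13 to 0.3142 (nutrient sensing) without 1 library, and 0.01496 to 0.1134, 0.2785 to 0.3991, 0.112 to 0.2745 and 0.1327 to 0.3124 for the same roles in the other alternatives. The hydrolase median of 0.01496 came from library totals, a scaling that put the median of all genes at -0.0377. In all 21 fits 34 members kept a log2 fold change above 0 and 11 below 0. The other 6 sit near 0. Ctsd turned to -0.05919 with library totals, -0.0304 with upper quartile scaling, -0.006835 without a filter, -0.00738 with a mean of 1 CPM, -0.0164 with limma-voom, -1.997e-05 with the newer method, -0.02116 with the block and -0.1027 without both OPE 1 and OPE 3. Tfe3 turned to -0.01542 with library totals, Gla to -0.000603 with limma-voom and -0.09191 without both libraries, and Tfeb to -0.1607 without both. Without 1 library, Ctsd ran from -0.1625 to 0.075, Gla from -0.1829 to 0.184, Arsb from -0.1162 to 0.252 and Mitf from -0.232 to 0.05047. The causes were not tested. Each member had at least 55 reads in every library.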
